A study of Mus musculus with 4 samples.

Results

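Integrins and laminins, the receptors and the sheet-forming ligands that tie cells to their basement membrane, were followed in nuclei of mouse kidneys with and without losartan. The members were the features whose symbol is that of an integrin alpha or beta subunit or of a laminin alpha, beta or gamma chain. This rule gave 38 features for 37 symbols out of 27998 features, with 18 integrin alpha, 8 integrin beta, 5 laminin alpha, 3 laminin beta and 3 laminin gamma symbols. Itgam, the alpha M subunit of myeloid cells, is carried by 2 overlapping features on the same strand of chromosome 7, ENSMUSG00000030786 and ENSMUSG00000108596, so the split of reads between them is uncertain. Values for Itgam below are those of the first unless the second is named.

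An integrin is a pair of 1 alpha and 1 beta chain that spans the cell membrane, binds matrix proteins outside and links to the actin or keratin cytoskeleton inside. A laminin is a cross-shaped trimer of 1 alpha, 1 beta and 1 gamma chain, and trimers join into the network on which collagen type IV, nidogen and the heparan sulphate proteoglycans perlecan and agrin are built. In the kidney, laminin with alpha 5, beta 2 and gamma 1 chains makes the filter of the glomerulus, where podocytes hold to it through integrin alpha 3 beta 1. Integrins alpha v beta 6 and alpha v beta 8 release active TGF-beta from its latent complex, and integrins with the beta 2 chain are those of white blood cells.

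The study measured nuclear transcripts in kidneys of C57BL/6 mice at postnatal week 22. One group was untreated (2 libraries) and the other was treated with losartan (2 libraries), which blocks angiotensin II at its type 1 receptor. Strain, age and tissue were the same in both groups; the sources used here give no dose, route, length of treatment or sex. No label says that the libraries of a group came from separate animals, so p-values measure the spread between these samples, which may be technical.

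The 4 libraries held 39654 barcodes and between 42290414 and 59078762 unique molecular identifiers (UMIs, counts of single captured transcripts). After filtering, 36003 nuclei were left, with library medians of 3363 to 4230.5 UMIs, and any pair of libraries shared 21 to 29 barcodes. Of these nuclei, 32575 fell into 18 classes named by marker genes. Class names stand for nuclei that resemble a cell type. Each class that results turn on carried its own markers: the thick ascending limb list summed to 20535 to 24061 CPM (UMIs per 1000000 UMIs of the class in a library) there and to at most 2321 CPM in the other tested classes, the proximal tubule list to 14867 to 20199 against 5650 CPM, and the mural list to 4042 to 5129 against 1008 CPM. Proximal tubule nuclei made up 31.6% and 22.0% of untreated and 45.2% and 36.3% of losartan libraries, and leukocytes 3.96% and 7.21% against 1.52% and 1.78%. The leukocyte shares leave out nuclei set aside for over 0.6% of UMIs from proximal tubule markers. The T and NK cluster lost a larger part of its nuclei to that limit in both losartan libraries than in either untreated library. A cluster with macrophage markers that stayed unnamed is left out as well. What part of the leukocyte difference rests on these steps was not tested. Transcripts of the proximal tubule moved with the groups in other cells too: summed proximal tubule markers ran from 786 to 3092 CPM in untreated and from 3196 to 5650 CPM in losartan libraries across the 12 other tested classes, higher in both losartan libraries in 12 of 12. That sum includes Kap, which was also higher in proximal tubule nuclei. Without Kap, median shares of UMIs per nucleus were also higher in both losartan than in both untreated libraries within each of these 12 classes. Within the thick ascending limb they were 0.106% and 0.0457% untreated and 0.168% and 0.141% with losartan. They overlapped only between classes, from 0.158% (mural, untreated library 1) to 0.135% (distal convoluted tubule, losartan library 2). In proximal tubule nuclei they were 1.40% and 1.31% untreated and 1.73% and 1.57% with losartan. Proximal tubule cluster 12 came almost wholly from losartan library 1, with 1407 of its 1464 nuclei.

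The first question was where each subunit was found. Levels are given as CPM with library totals scaled by TMM (trimmed mean of M values) within each class, whereas summed marker lists use plain totals. A level can be compared between classes for 1 gene but not between genes, since transcripts of different length are captured unequally. Means are over libraries with at least 20 nuclei of the class. For 14 of the 38 features the lowest library of the highest class lay above the highest library of the next class, and for 24 the ranges of these neighbours overlapped.

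The leukocyte integrins marked the immune classes. Itgal, the alpha chain of LFA-1, was highest in T and NK nuclei at 194 CPM (149 to 292) and next in B and plasma nuclei at 117 CPM (75.6 to 158). Itga4, the alpha chain by which leukocytes bind VCAM1, stood at 757 CPM in B and plasma nuclei (2 libraries) and at 620 CPM (400 to 1039) in T and NK nuclei, ranges that overlapped. Itgb7, a partner of alpha 4, averaged 124 CPM in T and NK nuclei, from 47.2 to 253, and 39.8 CPM in macrophages and dendritic cells. Macrophages and dendritic cells were highest for Itgam at 32.8 CPM (13.9 to 57.7) and for Itgax, the alpha X chain of dendritic cells, at 61.5 CPM (36.2 to 87.8). Both stood apart from the next class, at 4.38 CPM in B and plasma nuclei for Itgam and 8.86 CPM in T and NK nuclei for Itgax. Itgb2, the shared beta chain, was at 74.6, 70.2 and 69.2 CPM in macrophages and dendritic cells, B and plasma nuclei and T and NK nuclei, with overlapping ranges. Between 47.4% and 49.5% of the UMIs of Itga4, Itgal, Itgb2, Itgb7, Itgax and Itgam were counted in the 3 leukocyte classes, and 16.0% to 29.1% in unnamed or mixed nuclei. Itgae, partner of beta 7 in resident lymphocytes, was also highest in macrophages and dendritic cells, at 44.2 CPM, but 35.2% of its UMIs were from proximal tubule nuclei.

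Collagen receptors were highest in stromal or urothelial classes. Itga1 reached 1160 CPM (836 to 1401) in fibroblasts, above 604 CPM (480.2 to 781) in the parietal epithelium of the glomerulus. Itga2 was highest in urothelium, the lining of the renal pelvis, at 213.5 CPM (179 to 240.2) and next in principal cell and connecting tubule nuclei at 79.2 CPM, where the libraries ran from 13.5 to 125. Itga11 was low, at 18.9 CPM in fibroblasts and 15.6 CPM in parietal epithelium, ranges that overlapped. Itga10 averaged 30.3 CPM (17.1 to 48.3) in the class of mural, mesangial and renin nuclei. By UMIs, 42.7% of Itga2 lay in loop and distal nephron classes against 13.2% in urothelium. For Itga10, 33.3% lay in the proximal tubule against 8.07% in the mural class. Itga1 and Itga11 had their largest shares in fibroblasts, 28.2% and 43.4%, with 21.6% of Itga1 in the proximal tubule.

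Laminin-binding subunits were mostly epithelial. Itga3 stood at 303 CPM (264 to 347) in podocytes, the cells that cover the filter, above 126 CPM (88.9 to 169) in the thin limb. Itga6 was broad over the nephron, highest in the distal convoluted tubule at 292 CPM (246 to 353) and next in the thick ascending limb at 213.1 CPM (161 to 295). Its partner in hemidesmosomes, Itgb4, was urothelial, at 235 CPM (204 to 259) against 55.2 CPM (39.1 to 74.4) in type B intercalated nuclei. Itga7, the laminin receptor of muscle, was highest in mural, mesangial and renin nuclei at 71.2 CPM (67.2 to 77.2). However, 44.1% of Itga7 UMIs were counted in the proximal tubule, and the gene overlaps Mettl7b on the other strand, with 4171 UMIs there against 453 of Itga7. No source used here gives the strand setting of the counts, and the proximal tubule value of Itga7 is uncertain for that reason. In all, 12 members overlap a gene on the other strand, among them Itga4 with Cerkl (4019 and 1062 UMIs) and Itga9 with Gm2415 (13149 and 965 UMIs).

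Receptors for fibronectin, osteopontin, latent TGF-beta and related ligands divided between tubule, vessels and stroma. Itgav, the common alpha v chain, was highest in injured proximal tubule nuclei at 557 CPM (511.1 to 623) and next in type B intercalated nuclei at 471 CPM (372 to 530), with overlapping ranges. Itgb6 was likewise highest in injured proximal tubule, at 907 CPM (551 to 1059), followed by the thick ascending limb at 475 CPM (320 to 571) and the proximal tubule at 425 CPM. Itgb8 averaged 471 CPM in injured and 445 CPM in other proximal tubule nuclei, ranges that overlapped, and 56.4% of its UMIs lay in the latter. Itgb5 was a podocyte transcript at 661 CPM (605 to 725), above 303 CPM (211.4 to 385) in macrophages and dendritic cells. Itga5, the fibronectin receptor, marked endothelium at 106 CPM (92.8 to 115), above 48.0 CPM (25.0 to 56.2) in macrophages and dendritic cells. Itgb3 was sparse, with 610 UMIs in all, and averaged 25.5 CPM in endothelium. Itga8, the receptor for nephronectin, was highest in mural, mesangial and renin nuclei at 420.8 CPM (274 to 568), above 188 CPM (159 to 201) in fibroblasts. Itga9, which binds tenascin and osteopontin, was close in 3 classes, at 489 CPM in macrophages and dendritic cells, 415 CPM in fibroblasts and 363 CPM in mural, mesangial and renin nuclei.

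Itgb1, the shared chain of most of these alpha subunits, was spread over all classes, from 89.4 CPM in the proximal tubule to 444 CPM (374 to 502) in fibroblasts, where T and NK nuclei were next at 429 CPM. The platelet chain Itga2b (1154 UMIs), the leukocyte chain Itgad (135 UMIs) and the second Itgam feature (31 UMIs) were too sparse for an order of classes: 18.5 CPM for Itga2b in principal cell and connecting tubule nuclei overlapped 15.6 CPM in the thin limb.

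**Figure D1:**
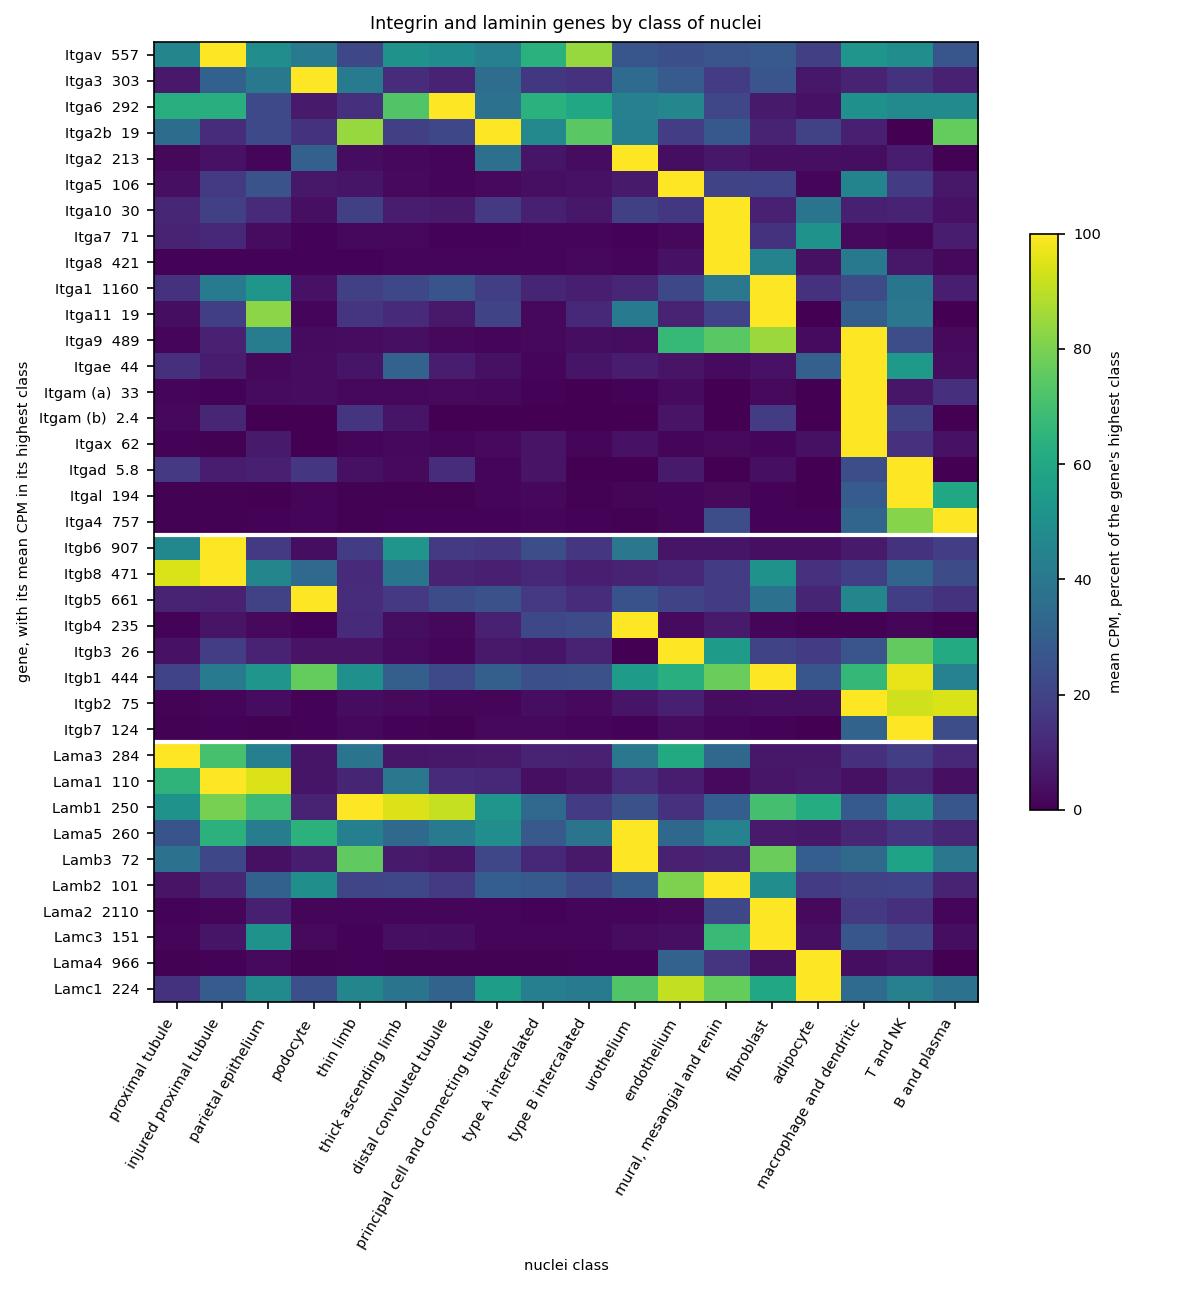
Mean CPM of integrin and laminin genes (rows; integrin alpha, integrin beta and laminin blocks) in 18 classes of nuclei (columns), as percent of the gene's highest class; the number beside a symbol is the mean CPM in that class. Itgam (a) and (b) are the 2 features of that symbol, and Itgb4 and Itga2 stand out in urothelium, Itga3 and Itgb5 in podocytes, and Lama2 in fibroblasts.

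By highest class, the laminin alpha chains divided between proximal tubule (Lama1 and Lama3), stroma, vessels and fat, and urothelium. Lama1, the chain of the early and the tubular basement membrane, averaged 110.5 CPM in injured proximal tubule, 105 CPM in parietal epithelium and 72.0 CPM in proximal tubule nuclei. Lama2 was the stromal chain, at 2110 CPM (1850 to 2461) in fibroblasts and 457 CPM (296 to 658) in mural, mesangial and renin nuclei, with 77.2% of its UMIs in fibroblasts. Lama3, known from the skin and other lining epithelia, was highest in the proximal tubule at 284 CPM (201 to 336), next in injured proximal tubule at 202 CPM and then in endothelium at 173 CPM. Lama4, the vessel chain, was at 966 CPM in adipocytes (2 libraries, 859 and 1072) and at 304 CPM (284 to 319) in endothelium, and 43.0% of its UMIs were endothelial. Lama5 was highest in urothelium at 260 CPM (186 to 314), then at 167 CPM in both injured proximal tubule (128 to 186) and podocytes. Urothelium held only 2.4% of its UMIs, against 30.4% in the proximal tubule and 32.1% in loop and distal nephron classes.

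The beta and gamma chains overlapped more. Lamb1 was shared by the thin limb at 250.3 CPM, the thick ascending limb at 237 CPM and the distal convoluted tubule at 229 CPM. Lamb2, the beta chain of mature glomerular and vascular membranes, was highest in mural, mesangial and renin nuclei at 101 CPM (79.6 to 130) and next in endothelium at 81.5 CPM (57.5 to 112). Lamb3 was at 72.1 CPM in urothelium and 55.6 CPM in fibroblasts, but 43.7% of its UMIs were in the proximal tubule. It overlaps Hsd11b1 and G0s2 on the other strand, which had 2875 and 6111 UMIs in the proximal tubule against 1851 of Lamb3, so that value is uncertain too. Lamc1, the common gamma chain, ranged from 32.7 CPM in the proximal tubule to 224 CPM in adipocytes and 203 CPM in endothelium. Lamc3 was at 151 CPM (117 to 186) in fibroblasts and 102 CPM (71.0 to 141) in mural, mesangial and renin nuclei.

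Partner chains were then set against each other across the 18 classes, by Pearson's r of log2 mean CPM after adding 1. The points share libraries and nuclear depth, and r is given as a description. Among the 24 integrin pairs, 4 leukocyte pairs lay highest, with r = 0.92 for Itgal and Itgb2, 0.84 for Itga4 and Itgb7, and 0.76 for both Itgam and Itgax with Itgb2. Spearman's rho of these pairs was 0.56, 0.64, 0.38 and 0.74, and these genes are near 0 in most classes. Among Itgb1 pairs, r was 0.74 with Itga9 and 0.71 with Itga5, and -0.42 with Itga6. Itgav followed Itgb6 (r = 0.53) and had values of 0.28, -0.08, -0.22 and -0.32 with Itgb8, Itgb5, Itgb3 and Itgb1. Itga6 and Itgb4, partners in the hemidesmosome, had r = 0.23, and the platelet pair Itga2b and Itgb3 had -0.37. For laminins, Lama2 with Lamc3 gave r = 0.94 (rho = 0.85), Lama4 with Lamc1 0.71, Lamb2 with Lamc1 0.63 and Lama1 with Lamb1 0.52, whereas Lama1 with Lamb2 gave -0.47, Lama1 with Lamc1 -0.40 and Lama5 with Lamc3 -0.35. Lama3 and Lamb3 gave r = 0.19. Lama5 had r = 0.20 with Lamb2 and -0.15 with Lamb1.

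**Figure D2:**
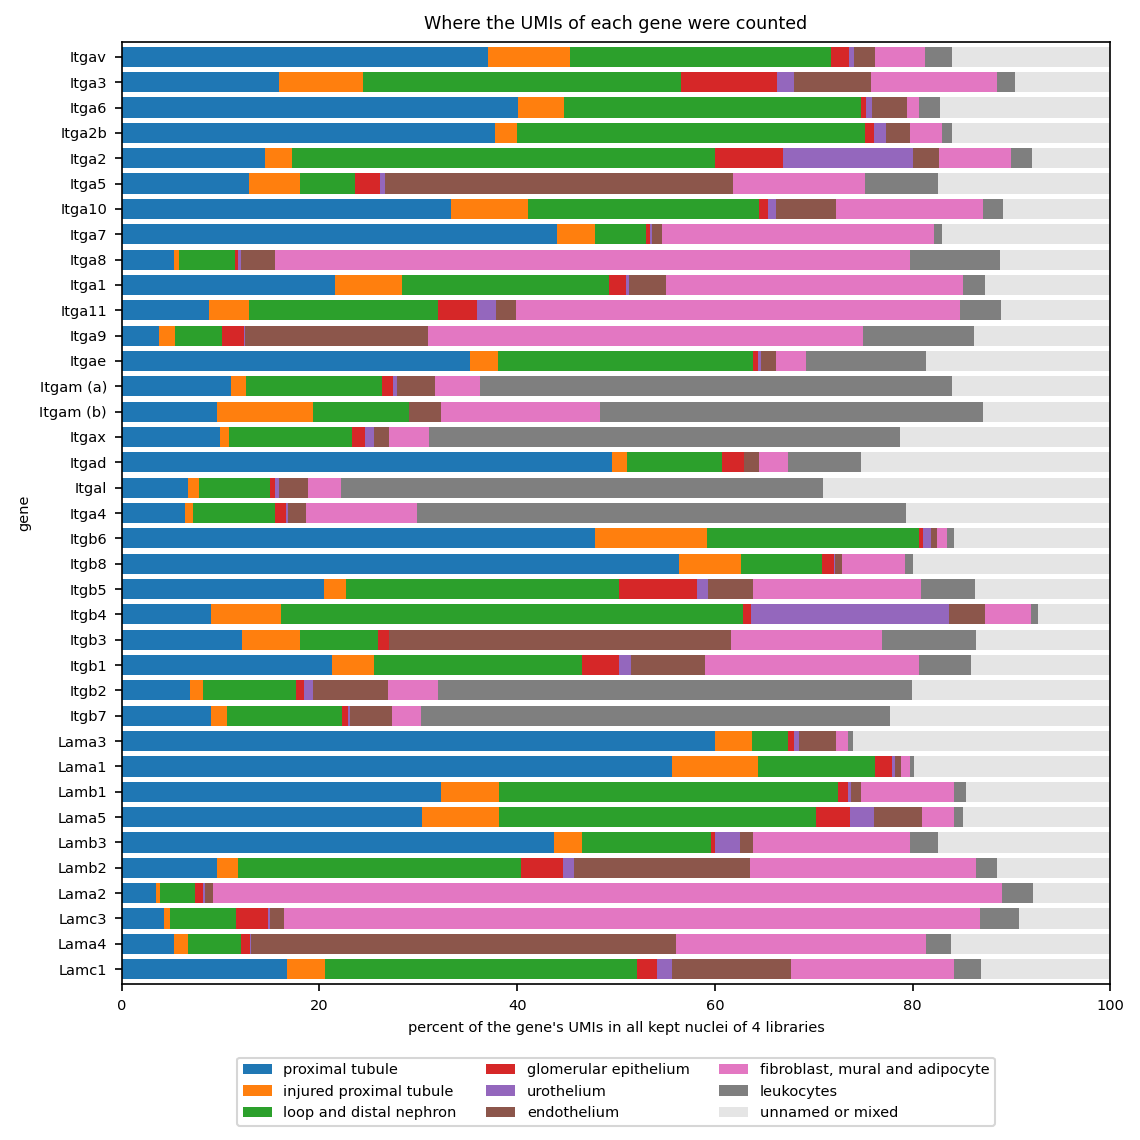
Share of each gene's UMIs (rows) counted in groups of classes, as percent of its UMIs in all kept nuclei of the 4 libraries. Leukocyte integrins such as Itga4 have 49.5% in leukocytes, Lama2 and Lamc3 lie mostly in stromal nuclei, and Itgb8 and Lama3 mostly in the proximal tubule.

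The second question was how the members differed with losartan. In sums over all kept nuclei of a library, 37 of the 38 features passed the filter on low counts and 0 were called at an adjusted p under 0.05 by the quasi-likelihood test of edgeR, which called 0% of the 18410 features tested. At an unadjusted p under 0.05 there were 16 members, 15 lower and 1 higher in losartan, against 21.9% of all features. DESeq2 called 9 members, a count given without the share of all features that it called. The median log2 difference of the members was -0.34, and that of all features -0.01. Both losartan libraries lay below both untreated libraries for 24 of 37 members, or 64.9%, against 28.3% of all features tested, and above them for 4 members, or 10.8%, against 29.1%. In these sums, fewer nuclei of a class and less RNA per nucleus cannot be told apart.

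Of the 6 members with the smallest p in these sums, 5 are given by library. Itgal stood at 6.80 and 7.62 CPM in untreated libraries 1 and 2 and at 3.39 and 3.56 CPM in losartan libraries 1 and 2. Itga4 stood at 23.9 and 37.6 CPM untreated and at 12.5 and 13.1 CPM with losartan. Itgax had 3.15 and 3.37 CPM untreated and 1.52 and 1.86 CPM with losartan. In these leukocyte chains the groups did not overlap, and the log2 differences were -1.06 ± 0.17 (SE) for Itgal, -1.27 ± 0.23 for Itga4 and -0.95 ± 0.23 for Itgax, with edgeR adjusted p of 0.110, 0.113 and 0.130. Without the leukocyte nuclei, the differences were -0.58, -0.66 and -0.14. Those sums still hold the unnamed nuclei, among them the unnamed cluster with macrophage markers.

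Itgb4 stood at 8.92 and 15.6 CPM untreated and at 5.26 and 5.55 CPM with losartan, a log2 difference of -1.20 ± 0.29 (SE; edgeR adjusted p = 0.134). Over the alternatives it ran from -1.53 without untreated library 1 to -0.74 without untreated library 2. Urothelium, where Itgb4 was highest, had 29 and 147 nuclei in the untreated and 59 and 65 in the losartan libraries. Lama3 ran the other way, at 119 and 137 CPM untreated and 213.1 and 220.6 CPM with losartan (0.75 ± 0.11; edgeR adjusted p = 0.110). The proximal tubule, where Lama3 was highest, had a larger share of nuclei in both losartan libraries. Without proximal tubule nuclei the Lama3 difference was 1.37, in sums that still hold the unnamed and mixed nuclei, and over named nuclei alone it was 0.62.

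**Figure D3:**
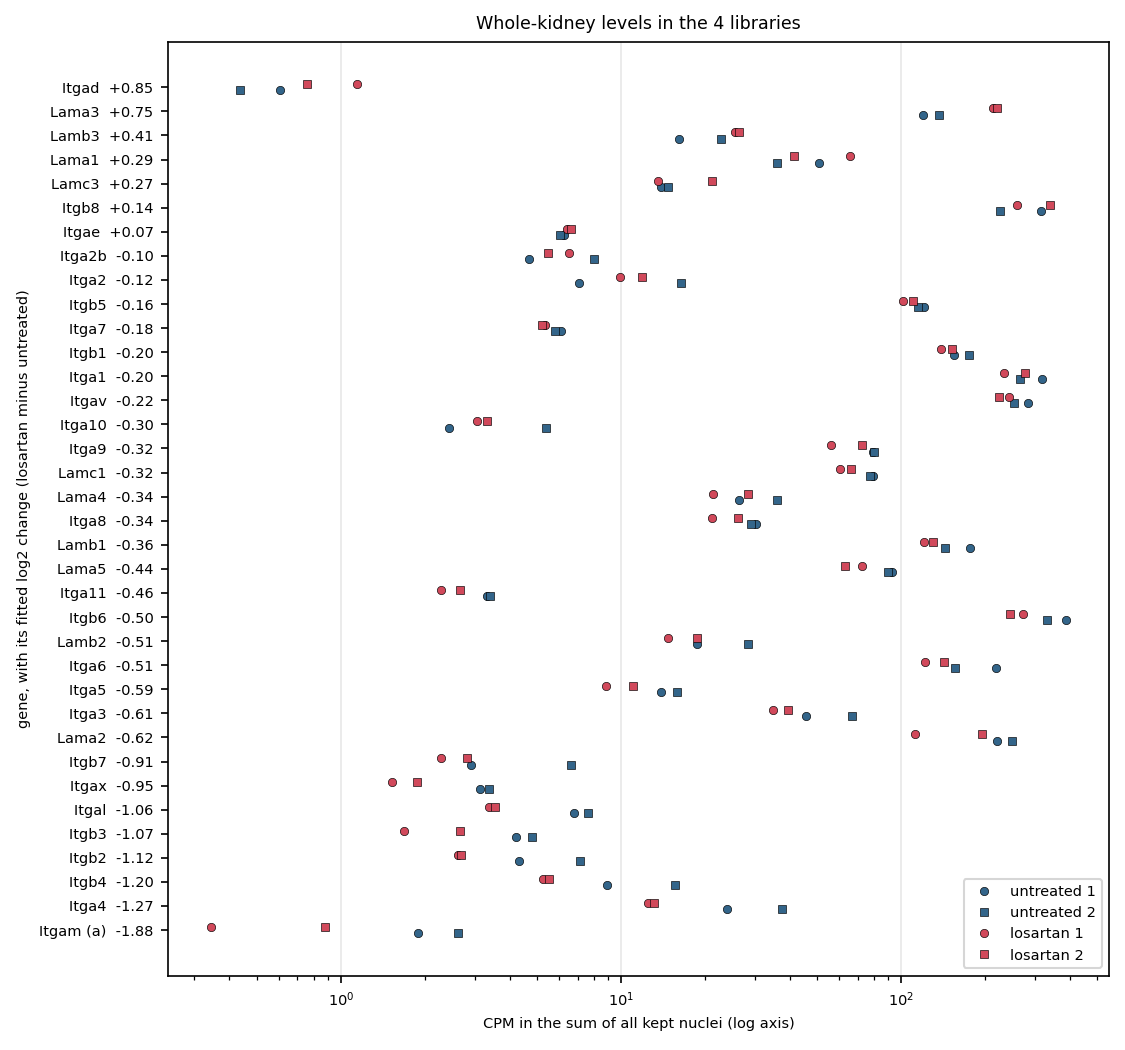
CPM (log axis) of the members drawn in the sums of all kept nuclei, 1 point per library, ordered by the fitted log2 difference printed beside the symbol. Blue untreated points lie to the right of red losartan points for most genes drawn, Itgal and Itga4 among them, and Lama3 shows the reverse.

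Within single classes, 13 had at least 50 nuclei in every library and were tested. Over these fits the members gave 301 tests, of which 2 were called, against 0.177% of all 128559 tests. At an unadjusted p under 0.05 there were 50 member tests (35 lower, 15 higher), or 16.6%, against 8.08% of all tests. In the thick ascending limb 2 of 29 were called, and in the other 12 classes 0. Leaving out a library leaves 1 in its group and moved the number of members called. The share of all features called in those fits is not set beside these numbers, so the moves are no result about the members. DESeq2 called 4, the 2 of the thick ascending limb and 2 in the proximal tubule, also without a share of all features beside them.

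Both calls were in the thick ascending limb, the salt-reabsorbing segment. Lama5, the laminin alpha chain of mature tubular and glomerular membranes, stood at 118 and 116 CPM in untreated libraries 1 and 2, from 531 and 525 UMIs, and at 62.2 and 58.5 CPM in losartan libraries 1 and 2, from 205 and 245 UMIs. The groups lay far apart, and Lama5 fell by 0.96 ± 0.12 (SE) on the log2 scale (edgeR adjusted p = 0.0316), a level 1.95-fold lower. Itgb4, which with alpha 6 anchors epithelia to laminin, stood at 12.3 and 17.0 CPM untreated and at 3.03 and 2.39 CPM with losartan. Its UMIs were few, at 55 and 77 against 10 and 10, and Itgb4 fell by 2.44 ± 0.34 (SE) on the log2 scale (edgeR adjusted p = 0.0443). These 2 of 29 members stand against 0.295% of 13231 features called in this class, 0.197% of them lower, and 6 members against 9.92% of features had an unadjusted p under 0.05. Both calls were lost without either losartan library, which leaves 1 in its group. There Lama5 had -1.01 and -0.90 and Itgb4 had -2.61 and -2.24.

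The start of Lama5 is shown, and that of Itgb4, the other called member, is not among the promoters used. The gene lies on chromosome 2 from 180176373 to 180225859 on the minus strand of GRCm38, and the window from RefSeq, 250 bases before to 50 after the start, is chr2:180225810-180226109 (GRCm38.p6, minus strand, written 5′ to 3′). Capitals mark the GC box GGGCGG, read on both strands, which 35.7% of all 32851 promoters in the table hold.
Lama5: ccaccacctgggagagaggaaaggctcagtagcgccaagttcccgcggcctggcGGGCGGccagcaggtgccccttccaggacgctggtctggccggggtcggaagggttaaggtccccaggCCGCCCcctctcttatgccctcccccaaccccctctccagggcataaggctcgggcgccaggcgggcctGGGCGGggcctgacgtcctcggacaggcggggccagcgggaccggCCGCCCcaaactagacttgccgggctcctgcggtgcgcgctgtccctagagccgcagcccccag
The window has 4 such matches and 72.7% G and C, against a median of 52.7% over all promoters. The other motifs searched on both strands were AP-1 as TGANTCA, the TATA box as TATAAA and the TEAD site as CATTCC, held by 7.81%, 13.6% and 14.7% of promoters, and none of these letters is in the window. In all, 23 of the 37 member symbols matched the promoter table.

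Other members in the thick ascending limb did not pass. Itgav stood at 340.4 and 339.7 CPM untreated and 234 and 229 CPM with losartan (log2 difference -0.56 ± 0.10 (SE), edgeR adjusted p = 0.0902). Itga6, partner of Itgb4, had 295 and 217 CPM untreated and 161 and 179 CPM with losartan (-0.59, adjusted p = 0.221), and Lamb1 had 270 and 267 against 212 and 199 CPM (-0.39, adjusted p = 0.221). Lama4 ran the other way at low counts, with 4.91 and 3.53 CPM untreated and 10.3 CPM in both losartan libraries (1.28, adjusted p = 0.192). Markers of endothelium, which held the largest share of Lama4 UMIs, summed to 307 and 216 CPM untreated and 420.3 and 353 CPM with losartan in this class. Itgb1 at 137, 136, 132 and 131 CPM and Lamc1 at 88.1, 87.0, 89.8 and 80.3 CPM in the same library order differed little, and their log2 differences were -0.05 ± 0.10 and -0.05 ± 0.12 (SE).

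Marker lists of other classes moved with these values. In thick ascending limb sums, 11 of 13 proximal tubule markers were higher in both losartan libraries. Their summed level, Kap included, was 1743 and 987 CPM untreated and 3978 and 3527 CPM with losartan. Of the injured proximal tubule list, 7 of 10 were lower, from 922 and 824 CPM to 648 and 663 CPM, and 6 of 8 parietal epithelium markers were lower, from 534 and 469 CPM to 322 and 334 CPM. The injured proximal tubule list summed higher here than in proximal tubule nuclei. It therefore cannot tell RNA of injured cells from transcripts of the class itself. The urothelium list, of the class where Itgb4 and Lama5 were highest, overlapped, at 58.7 and 97.5 CPM untreated and 58.1 and 68.8 CPM with losartan. With the nuclei richest in proximal tubule transcripts left out, Lama5 had -0.90 (edgeR adjusted p = 0.0402) and Itgb4 -2.35 (adjusted p = 0.0548). The part of the other lists in these calls was not tested.

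Itgb4 and Lama5 were lower in most other classes as well, which share the same 4 libraries. Itgb4 had a log2 difference below 0 in 8 of 9 classes tested. In the distal convoluted tubule it stood at 5.93 and 9.37 CPM untreated and 2.73 and 1.94 CPM with losartan (-1.71, edgeR adjusted p = 0.25). In principal cell and connecting tubule nuclei it stood at 26.4 and 33.1 CPM untreated and 12.3 and 14.5 CPM with losartan (-1.13, adjusted p = 0.878). Lama5 had a difference below 0 in 12 of 13 classes, at a median of -0.28, for example 98.5 and 114 CPM against 65.3 and 73.6 CPM in endothelium (-0.58, edgeR adjusted p = 0.867). Itgav also lay below 0 in 12 of 13 classes, from -0.61 in podocytes to 0.12. Markers of injured proximal tubule, the class where Itgav was highest, were lower in both losartan libraries in 10 of 13 classes, for example at 845 and 769 CPM untreated and 416 and 460 CPM with losartan in the distal convoluted tubule and at 439 and 390.4 CPM against 193 and 219 CPM in endothelium. In the distal convoluted tubule these markers summed higher than in proximal tubule nuclei, so they are no plain gauge of RNA from injured cells. Their part in the Itgav differences was not tested.

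**Figure D4:**
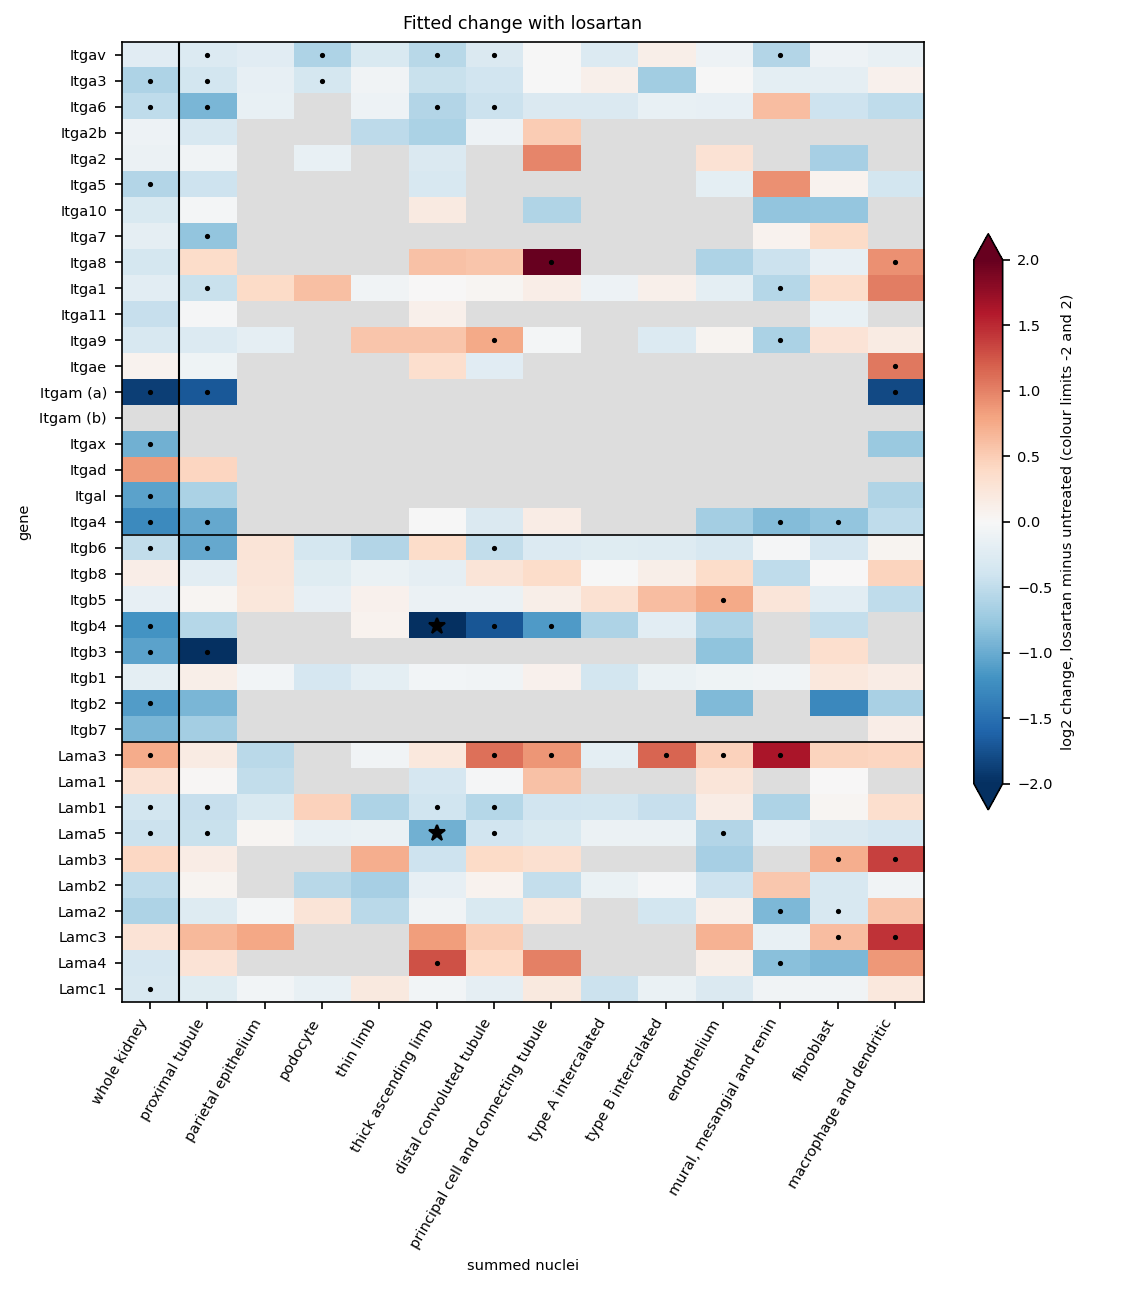
Fitted log2 difference, losartan minus untreated, for the members drawn (rows) in the whole kidney and in 13 classes (columns); grey marks genes under the count filter, dots an unadjusted p under 0.05 and stars an adjusted p under 0.05. The 2 stars are Itgb4 and Lama5 in the thick ascending limb; Lama3 is red in 9 of 12 classes.

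In the proximal tubule, the class with the most nuclei, 36 members were tested and edgeR called 0, as it did of all 14987 features there (0%). At an unadjusted p under 0.05 there were 11 members, 11 of them lower, against 12.5% of all features, and DESeq2 called Itgb6 and Itga6. Both losartan libraries lay below both untreated libraries for 19 members, or 52.8%, against 20.5% of all features, and above them for 3 members, or 8.33%, against 25.2%. Itgb6, the epithelial activator of TGF-beta, had the smallest p. It stood at 512 and 620.0 CPM in untreated libraries 1 and 2 and at 291 and 278 CPM in losartan libraries 1 and 2, groups that did not overlap, from 5064 to 8531 UMIs. The log2 difference was -1.02 ± 0.13 (SE), or 2.03-fold lower (edgeR adjusted p = 0.180). Without the cluster given almost wholly by losartan library 1 it was -1.19 (edgeR adjusted p = 0.128), and without losartan library 2 it was -0.99. Finer clusters also divided by group: at resolution 2, cluster 15 held 764 and 771 untreated against 3 and 107 losartan nuclei, and cluster 17 held 26 and 15 against 570 and 183. In this class 9 of 10 injured proximal tubule markers were lower in both losartan libraries, with sums of 477 and 424 CPM untreated and 376 and 279.9 CPM with losartan. Their part in the Itgb6 difference was not tested.

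Its partner Itgav had 281 and 275 CPM untreated and 240 and 228 CPM with losartan in the proximal tubule (-0.28, edgeR adjusted p = 0.327). Itgb8, the other activator of latent TGF-beta, overlapped, at 502 and 446 CPM against 338 and 494 CPM. Itga6 had 249 and 225 CPM untreated and 103 and 154 CPM with losartan (-0.91, adjusted p = 0.242), and without losartan library 2 it was -1.24. Itgb3, at 1.94 and 2.18 CPM against 0.367 and 0.548 CPM (-2.20, adjusted p = 0.202), is at the edge of detection in this class. Lama3, highest in this class, overlapped, at 201 and 330.3 CPM untreated and 270 and 336 CPM with losartan (0.16 ± 0.25 (SE)). Injured proximal tubule nuclei, in which Itgb6 and Itgav were highest, were 386 and 475 of the untreated and 33 and 136 of the losartan libraries, too few for a test of the members inside that class.

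The starts of the partners Itgav and Itgb6 are shown because both were lower in the proximal tubule and only Itgb6 has 2 starts in the table. The windows are chr2:83724147-83724446 (plus strand) for Itgav, and chr2:60722554-60722853 and chr2:60673644-60673943 (minus strand) for the first and second start of Itgb6, on GRCm38.p6 from RefSeq, with the GC box in capitals.
Itgav: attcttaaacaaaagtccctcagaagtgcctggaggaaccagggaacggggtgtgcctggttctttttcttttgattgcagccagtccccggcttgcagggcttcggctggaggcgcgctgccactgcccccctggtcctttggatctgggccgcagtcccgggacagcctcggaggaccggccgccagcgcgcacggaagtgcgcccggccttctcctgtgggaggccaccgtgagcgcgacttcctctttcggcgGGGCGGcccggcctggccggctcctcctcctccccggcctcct
Itgb6 first start: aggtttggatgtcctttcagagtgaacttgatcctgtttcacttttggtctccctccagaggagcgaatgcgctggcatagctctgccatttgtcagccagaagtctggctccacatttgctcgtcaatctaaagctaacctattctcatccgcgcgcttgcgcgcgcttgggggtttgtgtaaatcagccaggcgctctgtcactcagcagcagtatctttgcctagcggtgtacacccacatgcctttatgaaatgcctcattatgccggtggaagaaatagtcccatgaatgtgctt
Itgb6 second start: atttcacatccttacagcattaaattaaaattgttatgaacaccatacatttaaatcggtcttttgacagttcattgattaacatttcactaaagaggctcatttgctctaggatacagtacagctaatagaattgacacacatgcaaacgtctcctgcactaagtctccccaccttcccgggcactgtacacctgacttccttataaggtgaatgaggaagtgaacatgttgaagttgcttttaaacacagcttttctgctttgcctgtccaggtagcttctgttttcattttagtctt
The Itgav window has 1 GC box and 67.3% G and C. The Itgb6 windows have 0 GC boxes, with 50.3% and 38.3% G and C, and the AP-1, TATA and TEAD letters are in none of the 3 windows.

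Itgb6 in the thick ascending limb did not follow the proximal tubule, with 507 and 320 CPM untreated and 571 and 502 CPM with losartan, groups that overlapped (0.37 ± 0.20 (SE), edgeR adjusted p = 0.620). Whether losartan acted unequally in these classes was fitted in edgeR with the library as a block. For Itgb6 the thick ascending limb minus proximal tubule difference was 1.41 on the log2 scale (adjusted p = 0.154), for Itgb4 -1.90 (adjusted p = 0.278) and for Lama5 -0.52 (adjusted p = 0.314). Of 36 members 0 were called, with 1 of 15280 features called (0.00654%), so the effects are not shown to differ. Leaving out a library leaves 1 in its group, and only the size of the difference is given for these fits. For Itgb6 it was 1.85 and 0.95 without untreated libraries 1 and 2, and 1.35 and 1.47 without losartan libraries 1 and 2. For Itgb4 it was -2.13, -1.66, -2.35 and -1.36 in the same order.

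**Figure D5:**
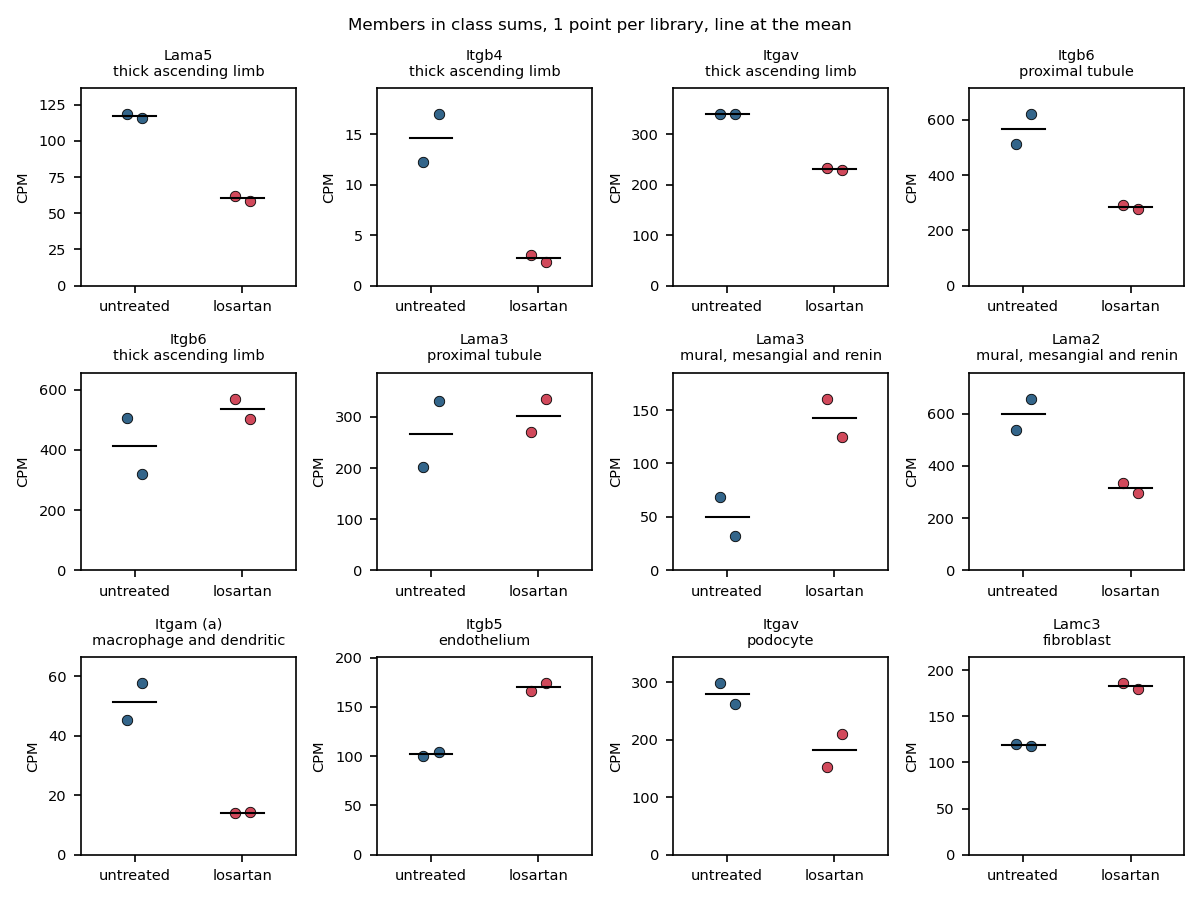
CPM of 12 member and class pairs, 1 point per library and a line at the group mean, on axes that start at 0. Untreated and losartan points do not overlap except for Itgb6 in the thick ascending limb and Lama3 in the proximal tubule. The pairs include members chosen for the smallest p in a class. In the classes drawn, 33.6% (endothelium) to 46.0% (mural) of all features do not overlap.

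In mural, mesangial and renin nuclei, the contractile and renin-making cells of vessels and glomerulus, 0 of 22 members were called by edgeR against 1.58% of all 7618 features, and 7 had an unadjusted p under 0.05 (background 14.4%). Lama3 stood at 68.2 and 31.9 CPM untreated and 161 and 125 CPM with losartan, from 19 to 75 UMIs (1.63 ± 0.35 (SE), edgeR adjusted p = 0.0546). Over 13 alternatives it ran from 1.10 without untreated library 2 to 2.18 without untreated library 1. With doublets kept, its edgeR adjusted p was 0.0477. Beside it, summed proximal tubule markers in this class were 3092 and 1618 CPM untreated and 5355 and 5650 CPM with losartan, and endothelial markers 3235 and 2087 CPM against 5708 and 4424 CPM. Lama2 was 540 and 658 CPM untreated and 334 and 296 CPM with losartan (-0.89 ± 0.19, edgeR adjusted p = 0.0579). Fibroblast markers, of the class where Lama2 was highest, summed to 397 and 604 CPM untreated and 304 and 273 CPM with losartan. Itga4, the VCAM1 receptor, had 224 and 242 CPM against 109 and 141 CPM (-0.87, adjusted p = 0.0919). The part of these other lists was not tested.

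Lama3 was above 0 in 9 of 12 classes tested and had an unadjusted p under 0.05 in 5 of them. In type B intercalated nuclei, where 1 of 17 members against 6.78% of features had an unadjusted p under 0.05 and 0 members against 0.0822% were called, it had the smallest p, at 21.0 and 10.3 CPM untreated and 29.6 and 43.0 CPM with losartan, from 4 to 22 UMIs (1.17 ± 0.49 (SE), edgeR adjusted p = 0.696), and ran from 0.59 with doublets kept to 1.76 without untreated library 1. The distal convoluted tubule had 13.7 and 9.68 CPM against 19.5 and 30.3 CPM. Kap, a hormone-regulated proximal tubule transcript, was called higher in 8 of 13 classes, with log2 differences of 1.08 or more in all 13. These 13 include the proximal tubule itself. Kap was thus also higher in its source class, and cannot alone gauge how much RNA from that segment reached other classes. What part of the Lama3 differences outside the proximal tubule came with RNA from that segment was not tested.

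Each remaining class is described by the member with the smallest p. In endothelium 3 of 26 members had an unadjusted p under 0.05 against 4.63% of features, and 0 were called against 0.00878%; in fibroblasts these were 4 of 30 against 8.69%, and 0 against 0.0232%. In endothelium the smallest was Itgb5, a vitronectin receptor chain, at 101 and 104 CPM untreated and 166 and 174 CPM with losartan (0.75 ± 0.15 (SE), edgeR adjusted p = 0.632). In fibroblasts it was Lamc3, at 120.1 and 117 CPM untreated and 186 and 179 CPM with losartan (0.62 ± 0.12, edgeR adjusted p = 0.208), while their main laminin chain Lama2 had 2229 and 2461 CPM against 1850 and 1898 CPM (-0.32, adjusted p = 0.526). Beside this, 6 of 10 fibroblast markers were lower in both losartan libraries in that class, with sums of 3495 and 4320 CPM untreated and 2403 and 3049 CPM with losartan, and proximal tubule markers summed to 1982 and 1372 against 4382 and 3196 CPM. Groups lay apart for Itgb5, Lamc3 and Lama2 alike, as they did for 33.6% of all features in endothelium and 38.5% in fibroblasts. None passed the adjustment, and the part of the marker lists was not tested.

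In macrophages and dendritic cells 5 of 27 members had an unadjusted p under 0.05 against 9.49% of features, in podocytes 2 of 13 against 7.77% and in the distal convoluted tubule 8 of 25 against 9.58%. Members called were 0 in each, against 0%, 0.383% and 0.232% of features. In macrophages and dendritic cells Itgam had 45.3 and 57.7 CPM untreated and 13.9 and 14.4 CPM with losartan, from 33, 75, 5 and 7 UMIs (-1.81 ± 0.39 (SE), edgeR adjusted p = 0.460). Over 12 alternatives it ran from -1.95 without untreated library 1 to -1.63. The class's own marker list went the same way, with 9 of 10 markers lower in both losartan libraries and sums of 4782 and 8894 CPM untreated and 3147 and 3666 CPM with losartan. Proximal tubule markers summed to 2636 and 1448 against 4581 and 4172 CPM there, and 9 of 11 endothelial markers were higher. Their part in the Itgam difference was not tested. In podocytes Itgav had 299 and 261 CPM untreated and 152 and 210.8 CPM with losartan (-0.61 ± 0.20, edgeR adjusted p = 0.298). The podocyte laminin receptor Itga3 had 333 and 347 CPM against 266 and 264 CPM (-0.35, adjusted p = 0.637). In the distal convoluted tubule Itga6 had 353 and 319 CPM untreated and 252 and 246 CPM with losartan (-0.44 ± 0.10, edgeR adjusted p = 0.175). In podocytes and the distal convoluted tubule the groups did not overlap for these members, nor for 35.8% and 39.7% of all features there.

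Among principal and connecting tubule nuclei 3 of 25 members had an unadjusted p under 0.05 against 4.53% of features, and 0 were called, as of all features. There Itga8 rested on 3, 6, 12 and 19 UMIs, at 1.84 and 1.72 CPM untreated and 7.05 and 9.53 CPM with losartan (2.22 ± 0.49 (SE), edgeR adjusted p = 0.878). The parietal epithelium had Lamc3 at 67.9 and 48.4 CPM against 68.8 and 122 CPM (edgeR adjusted p = 0.755), the thin limb Itgb6 at 236 and 154 CPM against 145 and 113 CPM (adjusted p = 0.999) and type A intercalated nuclei Itgb4 at 59.8 and 64.8 CPM against 36.9 and 42.4 CPM (adjusted p = 0.997). In these 3 classes 0 members had an unadjusted p under 0.05, against 7.17%, 2.05% and 4.71% of features, and features called made up 0.076%, 0% and 0.0136%. Itgb6 in the thin limb was -0.59 and ran from -0.24 without untreated library 1 to -0.90 without untreated library 2. Thin limb cluster 33 held 4 nuclei of untreated library 1, 253 of untreated library 2, and 46 and 108 of the losartan libraries. Lamc3 in the parietal epithelium ran from 0.27 without losartan library 2 to 1.11 without losartan library 1.

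The genes that work with integrins and laminins were counted from 4 lists. In whole-kidney sums, edgeR called 0 of 35 adaptors and activators, 0 of 20 basement membrane partners, 0 of 9 other laminin receptors and 0 of 26 other integrin ligands, with list medians of -0.10, -0.27, -0.02 and -0.60 beside -0.01 for all features. The smallest p among the ligands was that of Spp1, or osteopontin, at 392 and 643 CPM untreated and 163 and 198 CPM with losartan (-1.53, adjusted p = 0.110), and then of Icam1, the LFA-1 ligand, at 29.1 and 30.4 CPM against 18.4 and 20.7 CPM (-0.62, adjusted p = 0.113). For basement membrane partners these were Agrn, agrin, at 90.1 and 91.1 CPM against 70.5 and 60.5 CPM (-0.48, adjusted p = 0.126) and Col18a1 (-0.86, adjusted p = 0.145). For adaptors they were Fermt3, the kindlin of blood cells, at 10.0 and 12.9 CPM against 5.41 and 5.98 CPM (-1.02, adjusted p = 0.112), and Dab2, also a proximal tubule endocytosis adaptor, at 0.998 (adjusted p = 0.138). For other laminin receptors they were the syndecans Sdc1 (-1.13, adjusted p = 0.143) and Sdc2 (0.35, adjusted p = 0.201).

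In class sums, where 0.177% of all tests were called, 4 of 200 tests of the other ligands were called, all lower, 1 of 229 of the basement membrane partners, lower, 1 of 386 of the adaptors, higher, and 0 of 92 of the other laminin receptors. The shares of the basement membrane and adaptor lists, 0.437% and 0.259%, rest on 1 call each. In the thick ascending limb, where Lama5 fell, Col18a1, the core of a basement membrane proteoglycan, was at 81.6 and 88.5 CPM untreated and 44.9 and 41.6 CPM with losartan and fell by 0.98 ± 0.13 (SE) on the log2 scale (edgeR adjusted p = 0.0442). Agrn had 108 and 96.9 CPM against 67.3 and 69.3 CPM there (-0.59, adjusted p = 0.124). Spp1 fell by 1.39 in the thick ascending limb, 1.43 in mural, mesangial and renin nuclei and 1.32 in podocytes (edgeR adjusted p = 0.0443, 0.0440 and 0.0328), and it lay below 0 in 13 of 13 classes and in whole-kidney sums. The injured proximal tubule list was lower in both losartan libraries in 10 of 13 classes, podocytes included, at 2066 and 2036 CPM untreated and 1930 and 1796 CPM with losartan. In mural, mesangial and renin nuclei it overlapped, at 620.2 and 868 CPM against 619 and 680.0 CPM. The injured proximal tubule list summed higher in podocytes than in proximal tubule nuclei, so it is no plain gauge of RNA from injured cells there. What part it had in the Spp1 calls was not tested. Ctgf, a matricellular ligand, fell by 1.41 in podocytes (edgeR adjusted p = 0.0331). Lims2, a scaffold of the integrin-linked kinase complex, was at 39.8 and 47.0 CPM untreated and 105 and 120.4 CPM with losartan in mural, mesangial and renin nuclei and rose by 1.38 ± 0.27 (SE; edgeR adjusted p = 0.0466).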

How the data were processed

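Nuclei of 4 kidney libraries were analysed. The deposited matrices hold raw counts of UMIs per feature and barcode, written by Cell Ranger 5.0.0 per the file headers; the submitters' processing notes name Bowtie 0.12.2 and the build mm10, with no role given. Whether introns were counted, and on which strand, is not given in the sources used here.

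Nuclei with at least 500 UMIs, 300 genes and at most 10% mitochondrial UMIs were kept. Scrublet in scanpy 1.11.5 removed 3171 doublets; where its threshold marked under 0.5% (3 libraries), nuclei were removed from the top score down, at 0.8% for every 1000 nuclei. Leiden clustering (igraph 0.11.9, resolution 1), run without the members and with no integration, gave 35 clusters. They were named from 26 marker sets. Clusters with markers of several lineages, blood or proliferation markers or a depth over 1.9 times their libraries' median stayed unnamed (2938 nuclei), and nuclei of other classes with over 0.6% of UMIs from proximal tubule markers were set aside (490); these limits were chosen after seeing the clusters.

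Counts were summed per library and class and compared with edgeR 4.0.16 (R 4.3.3): TMM, filterByExpr, quasi-likelihood test, Benjamini-Hochberg over all features of a fit, with a call at adjusted p under 0.05. The scripts were tested on simulated data. DESeq2 1.42.0 and the other alternatives are under the closing section. Named members are those called in any fit, the 6 with the smallest p in whole-kidney sums and the 1 with the smallest p in each class; other values were chosen after they were seen. The values of 1 member are not reported here and it is left out of the figures, though counts over the members include it. The members and gene lists were chosen with earlier results of these data known. Genes were placed on GRCm38 with GENCODE annotation.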

Additional observations from a re-analysis of the deposited data

Results flagged for a closer look

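2 members had differences of opposite sign in 2 classes, with untreated and losartan libraries not overlapping in either and an unadjusted p under 0.05 in both; none of the 4 values passed the adjustment in edgeR, and the difference between these classes was not tested. Itga9, a tenascin and osteopontin receptor chain, had a log2 difference of 0.76 in the distal convoluted tubule, from 8.89 and 6.56 CPM untreated to 11.3 and 14.8 CPM with losartan, and of -0.63 in mural, mesangial and renin nuclei, from 426 and 464 CPM to 225 and 338 CPM. Lama4, the vessel laminin chain, had 1.28 in the thick ascending limb, from 4.91 and 3.53 CPM to 10.3 and 10.3 CPM, and -0.84 in mural, mesangial and renin nuclei, from 165 and 217 CPM to 94.3 and 116 CPM. In both genes the positive value stands in a class where the gene is near the lowest of its levels. Of all features, 39.7% in the distal convoluted tubule, 39.3% in the thick ascending limb and 46.0% in the mural class had groups that did not overlap. Groups of 2 libraries are too small for a test of single outlying libraries.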

How the results depend on the processing

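The number of members called in whole-kidney sums, 0 in the main test, was 9 with DESeq2 and 14 with a replicate block, and 0 with the other settings run (RLE size factors, no low-count filter, doublets kept, a 5% mitochondrial limit, without leukocyte or without proximal tubule nuclei, named nuclei only, and leaving out each library). In class sums the 2 calls became 4 with DESeq2, 13 with no low-count filter, 15 with a replicate block, 5 with nuclei holding proximal tubule transcripts kept (an alternative chosen after seeing the data), 1 without the nuclei richest in proximal tubule transcripts, and 0 to 23 leaving out 1 library. In the test of the difference between proximal tubule and thick ascending limb, 0 calls became 1 with no low-count filter and 0 to 2 leaving out 1 library. The shares of all features called under these alternative settings are not set beside these counts, so the changes are no result about the members. The cause of these changes was not tested. Labels give both groups replicate numbers 1 and 2 without saying what they share; same-numbered libraries had deviations with r = 0.35 in the whole kidney and 0.04 to 0.37 in the classes, over 0.1 in 11 of 14 sums. With only 2 pairs and no such label, the numbers were taken as shared numbers and not as pairs. No named member changed sign: of its alternatives, 229 stayed on the same side of the threshold, 25 passed it and 5 lost it, all 5 for Lama5 or Itgb4 in the thick ascending limb. With resolution 2 and with doublets kept, 34 and 31 of 38 features had the same highest class, and 34 to 38 leaving out 1 library. With doublets kept the macrophage class gave no value. Low counts limit Itgb4, Itgam, Itgb3 and Itga8 outside their main classes.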
